A study of Mus musculus with 8 samples.

Results

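Oxidative phosphorylation genes were taken as every gene of the deposited table whose symbol begins with mt- or belongs to the families *Nduf* (letters a, b, c, s and v), *Sdh* (letters a to d), *Uqcr*, *Cox4* to *Cox8* or *Atp5*, and whose annotated type is not pseudogene. The rule was met by 100 of the 15880 genes in the table, of which 2 encode mitochondrial ribosomal RNA (mt rRNA), 13 mitochondrial messenger RNA (mt mRNA) and 85 are nuclear. By symbol, 38 of the nuclear genes were counted with complex I, 4 with complex II, 8 with complex III, 13 with complex IV and 15 with complex V. The other 7 nuclear genes, *Ndufaf1* to *Ndufaf4*, *Atp5s*, *Atp5sl* and *Cox4nb*, match the rule by name and were kept apart from the subunits. In the annotation of the same mouse build (NCBIM37), 129 genes met the rule, and the table lacked all 22 mitochondrial transfer RNA genes and 7 nuclear genes (*Cox6a2*, *Cox7a1*, *Cox7b2*, *Cox8b*, *Cox8c*, *Atp5l-ps1* and a second identifier of *Ndufb8*). All 100 members had over 2 counts per 1000000 reads in at least 2 libraries.

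The study sorted stromal cells from the bones of newborn mice by a GFP reporter and by surface Pdgfrα, to compare nestin-expressing with other mesenchymal cells of the forming marrow. All pups were heterozygous for *Nes-Gfp*, a transgene in which regulatory elements of nestin drive GFP, on a C57BL/6 background, and were taken on postnatal day 1. Collagenase-digested bones of 3 pups were pooled, and the paper states that pooled bones of several littermates gave each independent set of samples. For each library, 15000 to 80000 cells were sorted that lacked CD45 (white blood cells), CD31 (endothelium) and Ter119 (red blood cell lineage). The 4 populations, with 2 libraries each, were GFP+ Pdgfrα+, GFP+ Pdgfrα-, GFP- Pdgfrα+ and GFP- Pdgfrα-, and the labels name no treatment.

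Oxidative phosphorylation couples the transfer of electrons along complexes I to IV of the inner mitochondrial membrane to the pumping of protons, and complex V (ATP synthase) uses the proton gradient to make ATP. A few of the subunits, together with the rRNAs of the mitochondrial ribosome, are encoded by the small circular mitochondrial genome, which is transcribed from both strands into long precursors, while all other subunits are encoded in the nucleus and imported. In bone, cells of the osteoblast lineage draw ATP from glycolysis and from oxidative phosphorylation, in proportions that change as they differentiate.

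Each deposited value counts a gene's reads, with 0.5 added, for every 1000000 of the library's total reads multiplied by a normalization factor. Whole reads on genes summed to 5302762 and 4058258 in GFP- Pdgfrα-, with replicate 2 first, to 3221217 and 3869275 in GFP- Pdgfrα+, to 3427644 and 3644103 in GFP+ Pdgfrα- and to 3329432 and 3564158 in GFP+ Pdgfrα+. A gene with 3 reads, taken as the floor of detection, has a value of 0.825 to 1.04, a floor that covers counting error only, since amplified reads are not independent molecules. Values were compared as log2(value + 1) with limma over all 8 libraries, two-sided, and a gene was called at a Benjamini-Hochberg adjusted p of at most 0.05 over all 15880 genes. In parentheses, a log2 fold change is given ± its standard error, a fold is the ratio of the mean values of 2 populations, and lower or higher without a value stands for called genes. Permuting 2 libraries per group exactly, for a single gene and in both directions, cannot give p below 0.333, so the calls rest on the spread that limma shares across genes.

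*Pdgfra*, which encodes the sorted receptor, had values of 733 and 754 in GFP+ Pdgfrα+, 18.1 and 10.4 in GFP+ Pdgfrα-, 839 and 794 in GFP- Pdgfrα+ and 3.303 and 4.36 in GFP- Pdgfrα-. *Nes*, the gene whose regulatory elements drive the reporter, had values of 149 and 176 in GFP+ Pdgfrα-, 57.6 and 72.01 in GFP+ Pdgfrα+, 27.4 and 47.1 in GFP- Pdgfrα+ and 3.59 and 9.08 in GFP- Pdgfrα-. Thus the Pdgfrα+ libraries were the 4 highest for *Pdgfra*, and at each Pdgfrα status the GFP+ libraries were above the GFP- libraries for *Nes*, although GFP- Pdgfrα+ exceeded GFP- Pdgfrα-, and *Nes* was not called in GFP+ Pdgfrα+ against GFP- Pdgfrα+ (0.82 ± 0.34, adjusted p = 0.213). *Ptprc* (CD45) had values of 11.3 and 6.72 in GFP- Pdgfrα-, 1.34 and 0.9004 in GFP+ Pdgfrα-, 0.6905 and 1.58 in GFP+ Pdgfrα+ and 0.126 and 0.148 in GFP- Pdgfrα+, and its reads were 0 in both GFP- Pdgfrα+ libraries.

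The 2 GFP- Pdgfrα- libraries stood apart from the other 6. Their normalization factors were 0.858 and 0.800, against 1.02 to 1.13 elsewhere, and the median value of all genes was 8.19 and 8.61 there, against 11.7 to 12.3. All 10 of 10 erythroid markers were in the table, and although Ter119+ cells had been removed, their summed value was 46.7 and 48.3 in GFP+ Pdgfrα+, 173 and 91.3 in GFP+ Pdgfrα-, 57.2 and 40.4 in GFP- Pdgfrα+ and 13942 and 22007 in GFP- Pdgfrα-. The most abundant was the β-globin gene *Hbb-b1*, with 4362 and 7619 in GFP- Pdgfrα-, and *Gata1*, a transcription factor of red cell precursors, had 0 reads in both GFP+ Pdgfrα+ libraries. All 10 were lower in GFP+ Pdgfrα- and in GFP- Pdgfrα+ than GFP- Pdgfrα-, and 4 of 10 in GFP+ Pdgfrα+ than GFP+ Pdgfrα- (median log2 fold change −1.09). Of all genes, 23.6%, 26.8% and 11.1% were lower in these comparisons, in the same order, and 30.1%, 32.9% and 13.1% were higher. In GFP+ Pdgfrα+ against GFP- Pdgfrα+, 3.22% of all genes were higher and 2.13% lower. The 4 cell cycle genes, led by *Mki67*, summed to 452 and 359 in GFP+ Pdgfrα+, 807 and 659 in GFP+ Pdgfrα-, 196 and 151 in GFP- Pdgfrα+ and 6715 and 7668 in GFP- Pdgfrα-. All 4 were lower in GFP+ Pdgfrα- and GFP- Pdgfrα+ than GFP- Pdgfrα-, 3 of 4 were higher in GFP+ Pdgfrα+ than GFP- Pdgfrα+, and 2 of 4 were lower in GFP+ Pdgfrα+ than GFP+ Pdgfrα- (median −0.78). The 7 white blood cell markers, led by *Lyz2*, summed to 6.49 and 11.9 in GFP+ Pdgfrα+, 24.2 and 30.7 in GFP+ Pdgfrα-, 22.8 and 15.6 in GFP- Pdgfrα+ and 89.5 and 98.7 in GFP- Pdgfrα-, and 4 of 7 were lower in GFP+ Pdgfrα- and 6 of 7 in GFP- Pdgfrα+ than GFP- Pdgfrα-, and 1 of 7 in GFP+ Pdgfrα+ than GFP+ Pdgfrα-. *Malat1* and *Neat1*, nuclear transcripts read as a sign of RNA quality, summed to 7136 and 7525 in GFP+ Pdgfrα+, 8342 and 7434 in GFP+ Pdgfrα-, 10221 and 11721 in GFP- Pdgfrα+ and 3616 and 4372 in GFP- Pdgfrα-, and both were higher in GFP+ Pdgfrα- and GFP- Pdgfrα+ than GFP- Pdgfrα-. In bulk RNA, fewer cells of a type and less RNA per cell cannot be told apart. These values move with the differences reported for GFP- Pdgfrα-, as do several lists of other lineages given next. The erythroid, cell cycle and white blood cell values also move with the differences between the GFP+ populations. So do the muscle precursor, pericyte and smooth muscle, Schwann cell, muscle fibre and adipocyte values given next, while osteoblast and chondrocyte values run the other way. The part of all these values in the results was not tested.

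Markers of other lineages differed between the remaining populations, and shares of all genes are given with the lists further below. Muscle precursor markers (5 of 5 in the table, led by *Pax7*) summed to 46.3 and 39.2 in GFP+ Pdgfrα+, 726 and 759 in GFP+ Pdgfrα-, 17.02 and 16.2 in GFP- Pdgfrα+ and 8.76 and 5.78 in GFP- Pdgfrα-. Pericyte and smooth muscle markers (5 of 5, led by *Rgs5*) summed to 241 and 212 in GFP+ Pdgfrα+, 1706 and 2201 in GFP+ Pdgfrα-, 95.9 and 105 in GFP- Pdgfrα+ and 57.9 and 93.3 in GFP- Pdgfrα-. Schwann cell markers (5 of 5, led by *Erbb3*) summed to 91.6 and 56.2 in GFP+ Pdgfrα+, 406 and 380.1 in GFP+ Pdgfrα-, 12.7 and 22.4 in GFP- Pdgfrα+ and 21.7 and 38.3 in GFP- Pdgfrα-, with *Foxd3* at 0 reads in both GFP- Pdgfrα- libraries. All 5 genes of each of these lists were lower in GFP+ Pdgfrα+ than GFP+ Pdgfrα-, and all 5 were higher in GFP+ Pdgfrα- than GFP- Pdgfrα-. In GFP+ Pdgfrα+ against GFP- Pdgfrα+, 2 muscle precursor, 2 pericyte and smooth muscle and 3 Schwann cell markers were higher. Muscle fibre markers (9 of 9, led by *Myh8*) summed to 51.2 and 60.2 in GFP+ Pdgfrα+, 198 and 178 in GFP+ Pdgfrα-, 49.8 and 41.4 in GFP- Pdgfrα+ and 35.5 and 29.1 in GFP- Pdgfrα-, and 6 of 9 were lower in GFP+ Pdgfrα+ than GFP+ Pdgfrα-. Osteoblast markers (5 of 5, led by *Col1a1*, with *Bglap* at 0 reads in both GFP- Pdgfrα- libraries) summed to 54131 and 40403 in GFP+ Pdgfrα+, 3313 and 2751 in GFP+ Pdgfrα-, 16926 and 15411 in GFP- Pdgfrα+ and 448 and 580.5 in GFP- Pdgfrα-. All 5 were higher in GFP+ Pdgfrα+ than in GFP- Pdgfrα+ and than in GFP+ Pdgfrα-. All 5 were also higher in GFP+ Pdgfrα- and in GFP- Pdgfrα+ than in GFP- Pdgfrα-. Endothelial markers (6 of 6, led by *Tek*) summed to 48.6 and 72.7 in GFP+ Pdgfrα+, 45.9 and 93.4 in GFP+ Pdgfrα-, 49.4 and 51.4 in GFP- Pdgfrα+ and 31.6 and 121 in GFP- Pdgfrα-, and in GFP- Pdgfrα+ 3 of 6 were lower and 1 higher than in GFP- Pdgfrα-. Chondrocyte markers (5 of 5, led by *Col2a1*, with *Matn1* at 0 reads in the 4 GFP+ libraries) summed to 283 and 362 in GFP+ Pdgfrα+, 66.4 and 95.1 in GFP+ Pdgfrα-, 534 and 1868 in GFP- Pdgfrα+ and 481 and 891 in GFP- Pdgfrα-, and in GFP+ Pdgfrα- 4 of 5 were lower and 1 higher than in GFP- Pdgfrα-. Adipocyte markers (4 of 5, without *Ucp1*, led by *Fabp4*, with *Cidea* at 0 reads in both GFP- Pdgfrα+ libraries) summed to 11.9 and 14.1 in GFP+ Pdgfrα+, 48.3 and 37.05 in GFP+ Pdgfrα-, 7.31 and 12.2 in GFP- Pdgfrα+ and 29.01 and 37.02 in GFP- Pdgfrα-, and 2 of 4 were lower in GFP+ Pdgfrα+ than GFP+ Pdgfrα-. In GFP+ Pdgfrα- against GFP- Pdgfrα-, 8 of 9 muscle fibre markers were higher, and 2 of 5 chondrocyte markers were lower in GFP+ Pdgfrα+ than GFP- Pdgfrα+. The part of these cell types in the results on oxidative phosphorylation genes was not tested.

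The 3 classes of members took very different amounts of sequence. Mitochondrial rRNA took 11.9 and 12.6 in GFP+ Pdgfrα+, 22.3 and 20.6 in GFP+ Pdgfrα-, 13.2 and 13.2 in GFP- Pdgfrα+ and 34.4 and 36.6 in GFP- Pdgfrα-, as percent of all reads. The order GFP- Pdgfrα-, GFP+ Pdgfrα- and the Pdgfrα+ populations held without overlap, and the 2 Pdgfrα+ populations were next to each other at 12.2 ± 0.5004 and 13.2 ± 0.00802 (mean ± SD, n = 2). For mt mRNA the percentages of reads were 1.1002 and 1.13 in GFP+ Pdgfrα+, 1.94 and 1.62 in GFP+ Pdgfrα-, 1.21 and 1.23 in GFP- Pdgfrα+ and 2.49 and 2.49 in GFP- Pdgfrα-. The populations followed the same order, again without overlap. Nuclear members took 0.302 and 0.264 in GFP+ Pdgfrα+, 0.445 and 0.392 in GFP+ Pdgfrα-, 0.246 and 0.224 in GFP- Pdgfrα+ and 0.601 and 0.544 in GFP- Pdgfrα-, as percent of reads, so that GFP- Pdgfrα+ was lowest in this class. Reads on mt rRNA were 10.8 and 11.1 in GFP+ Pdgfrα+, 11.5 and 12.7 in GFP+ Pdgfrα-, 10.9 and 10.7 in GFP- Pdgfrα+ and 13.8 and 14.7 in GFP- Pdgfrα- times the reads on mt mRNA. This ratio was above that of the other 6 in both GFP- Pdgfrα- libraries, while it was lowest in GFP- Pdgfrα+ replicate 2. Reads on mt mRNA were 4.901 and 5.47 in GFP- Pdgfrα+, 3.63 and 4.27 in GFP+ Pdgfrα+, 4.35 and 4.12 in GFP+ Pdgfrα- and 4.14 and 4.57 in GFP- Pdgfrα- times those on nuclear members, highest in both GFP- Pdgfrα+ libraries.

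**Figure D1:**
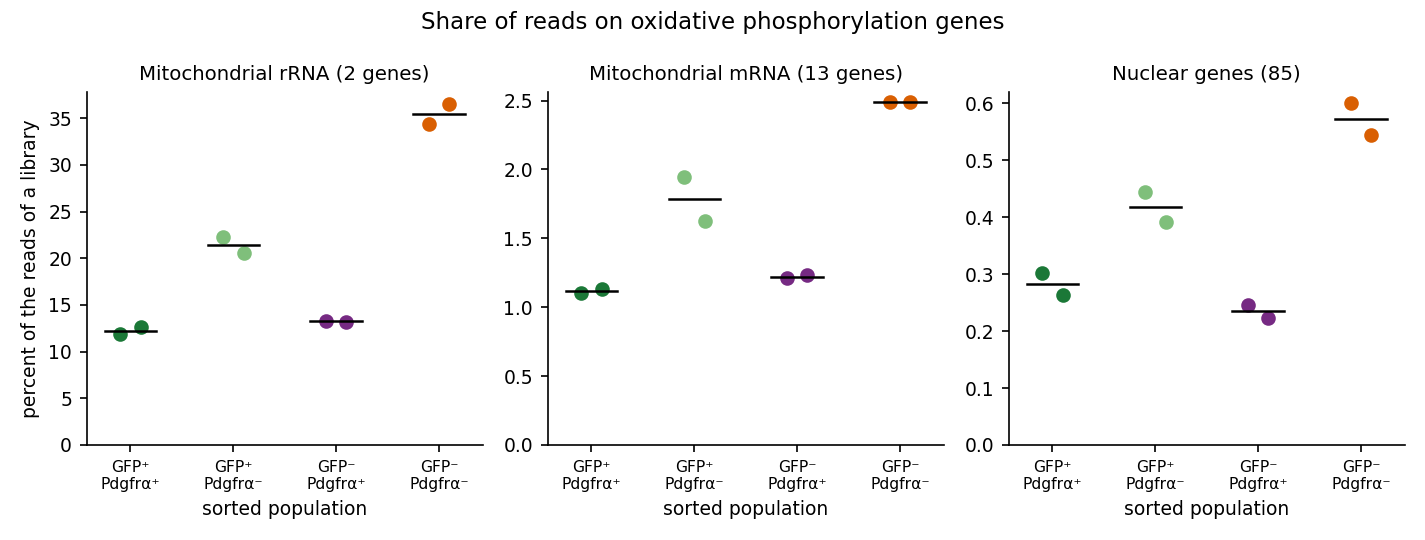
Percent of the reads of a library (vertical axes, from 0) on 2 mitochondrial rRNA, 13 mitochondrial mRNA and 85 nuclear members, by sorted population (horizontal axes). Points are libraries and lines are means of 2, and both GFP- Pdgfrα- libraries are highest in all 3 classes.

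The 2 rRNAs of the mitochondrial ribosome were the most abundant members. Values of a gene are given from here on as 4 pairs of libraries, in the order GFP+ Pdgfrα+, GFP+ Pdgfrα-, GFP- Pdgfrα+ and GFP- Pdgfrα-. *mt-Rnr1* (ENSMUSG00000064337, chrM:70-1024), the rRNA of the small subunit, had values of 23221 and 22127, 41341 and 44194, 23770.2 and 22822, 84622 and 93230.2. All 8 libraries fell into 3 levels, with GFP- Pdgfrα- highest, GFP+ Pdgfrα- next and the Pdgfrα+ populations lowest and overlapping. It was 2.08-fold lower in GFP+ Pdgfrα- than GFP- Pdgfrα- (−1.06 ± 0.17, adjusted p = 0.000186) and 3.82-fold lower in GFP- Pdgfrα+ than GFP- Pdgfrα- (−1.93 ± 0.17, adjusted p = 8.23e-07). Between the GFP+ populations it was 1.89-fold lower in GFP+ Pdgfrα+ (−0.92 ± 0.17, adjusted p = 0.00183). *mt-Rnr2* (ENSMUSG00000064339, chrM:1094-2675), the rRNA of the large subunit, had values of 93738 and 98365, 155742 and 137404, 105337 and 103682, 316794 and 364244. The same 3 levels were seen, here with all libraries of GFP- Pdgfrα+ above those of GFP+ Pdgfrα+. It was lower in GFP+ Pdgfrα- (−1.22 ± 0.22, adjusted p = 0.000607) and in GFP- Pdgfrα+ (−1.70 ± 0.22, adjusted p = 3.37e-05) than in GFP- Pdgfrα-. Between the GFP+ populations the difference of *mt-Rnr2* missed the threshold (−0.61 ± 0.22, adjusted p = 0.0707), but it was called with replicate as a block (adjusted p = 0.0160) and by voom and edgeR.

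Counts of the mt rRNA genes read as follows against all genes. In GFP+ Pdgfrα- against GFP- Pdgfrα-, 2 of 2 were lower, where 53.7% of all genes were called and 23.6% were lower. A fit of these 2 populations alone called 0 of 2 with limma, with 1 at an unadjusted p under 0.05. In GFP- Pdgfrα+ against GFP- Pdgfrα-, 2 of 2 were lower, where 59.7% of all genes were called and 26.8% were lower. For GFP+ Pdgfrα+ against GFP+ Pdgfrα-, 1 of 2 was lower, where 24.2% of all genes were called and 11.1% were lower. This count was 2 of 2 with the replicate block, with voom, with edgeR and without the GFP- Pdgfrα- libraries, and leaving out any 1 library gave 1 or 2. Between the Pdgfrα+ populations limma called 0 of 2, with 0 at an unadjusted p under 0.05 and 0 by voom and by edgeR, where 5.35% of all genes were called, 3.22% higher and 2.13% lower. For the interaction, the GFP difference in Pdgfrα+ minus that in Pdgfrα- cells, 2 of 2 were higher, where 44.3% of all genes were called and 19.1% were higher, and without GFP+ Pdgfrα- replicate 2, GFP- Pdgfrα+ replicate 1 or GFP- Pdgfrα+ replicate 2 it was 1 of 2. These comparisons share populations, so their results are not independent of each other. Per kb of transcript, *mt-Rnr2* exceeded *mt-Rnr1* by a ratio of 2.44 and 2.68 in GFP+ Pdgfrα+, 2.27 and 1.88 in GFP+ Pdgfrα-, 2.68 and 2.74 in GFP- Pdgfrα+ and 2.26 and 2.36 in GFP- Pdgfrα-, lowest in GFP+ Pdgfrα- replicate 2.

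The 13 mt mRNA genes encode subunits of complexes I, III, IV and V. In GFP+ Pdgfrα- against GFP- Pdgfrα-, 12 of 13 were lower and none higher, all but *mt-Nd3*, with voom and edgeR also calling 12. Of all genes 23.6% were lower. The median log2 fold change of the 13 was −0.88, against 0.15 over all genes. In GFP- Pdgfrα+ against GFP- Pdgfrα-, again 12 of 13 were lower, against 26.8% of all genes, and voom and edgeR called 13. The median was −1.20, against 0.17 over all genes. For GFP+ Pdgfrα+ against GFP+ Pdgfrα-, 6 of 13 were lower and none higher (voom 6, edgeR 4, limma with no trend 1), against 11.1% of all genes lower, with a median of −0.36 against −0.02 over all genes. This count was 2 without GFP+ Pdgfrα+ replicate 1, 3 without GFP+ Pdgfrα+ replicate 2, 1 without GFP+ Pdgfrα- replicate 1, and 3 without either library of GFP- Pdgfrα+. Between the Pdgfrα+ populations limma called 0 of 13, with 1 at an unadjusted p under 0.05 (*mt-Nd6*) and 0 by voom and by edgeR, where 5.35% of all genes were called. The median was −0.14, against 0.00467 over all genes. The interaction was higher in 7 of 13 (voom and edgeR 9), against 19.1% of all genes, and without GFP+ Pdgfrα- replicate 2 in 4, while for GFP+ Pdgfrα- against GFP- Pdgfrα- the count was 7 without that library. For the interaction, limma called 2 of 13 with no trend and 0 of 13 with no normalization factor. The mean was highest in GFP- Pdgfrα- for 13 of 13 genes, and lowest in GFP+ Pdgfrα+ for 10 and in GFP- Pdgfrα+ for 3. Both GFP- Pdgfrα- libraries were above the other 6 in 12 of the 13, and these counts were not made over all genes. Set against GFP- Pdgfrα- alone, GFP+ Pdgfrα- lay below without overlap in 12 of the 13 and above in 0. Of all 15880 genes, 5368 lay below and 6764 above. For GFP- Pdgfrα+ these counts were 13 and 0 of the 13, and 5620 and 7112 of all genes.

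**Figure D2:**
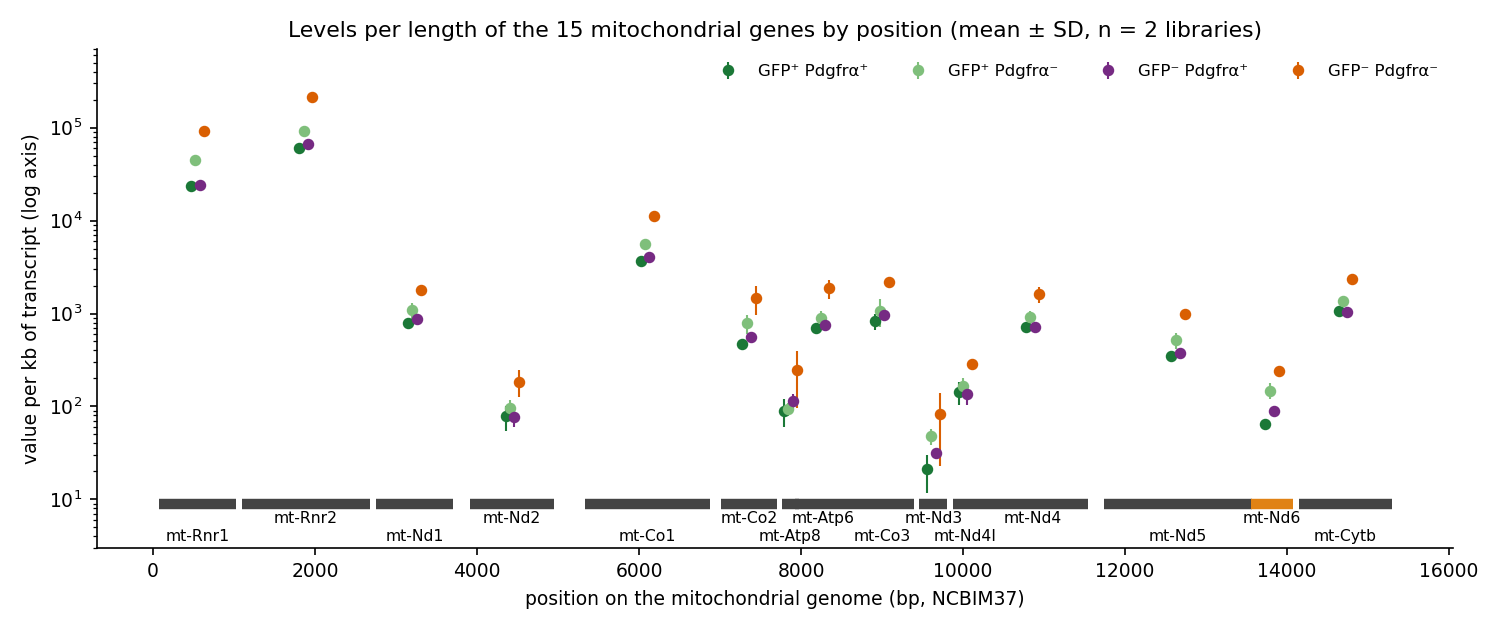
Value per kb of transcript (vertical axis, log scale) of the 15 mitochondrial genes by position on the genome of 16299 bases (horizontal axis, NCBIM37). Points are means ± SD of 2 libraries in the 4 populations, bars at the foot are the genes, with *mt-Nd6*, on the other strand, in orange, and the GFP- Pdgfrα- mean is highest for each gene.

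Of these genes, 7 encode subunits of complex I, which takes electrons from NADH. *mt-Nd1* (ENSMUSG00000064341, chrM:2751-3707) had values of 719.6 and 797, 1177 and 893, 834 and 835, 1751 and 1711. Its libraries of GFP- Pdgfrα- lay above all others, and those of GFP+ Pdgfrα- lay above the Pdgfrα+ libraries. It was 1.67-fold lower in GFP+ Pdgfrα- (−0.75 ± 0.14, adjusted p = 0.000513) and 2.07-fold lower in GFP- Pdgfrα+ (−1.05 ± 0.14, adjusted p = 2.89e-05) than in GFP- Pdgfrα-. *mt-Nd4* (ENSMUSG00000064363, chrM:10167-11544) had values of 955 and 997, 1414 and 1108, 992 and 962, 1904 and 2529.7. In GFP- Pdgfrα- it was above all other libraries, and the Pdgfrα+ populations overlapped (GFP+ Pdgfrα- against GFP- Pdgfrα-, −0.81 ± 0.15, adjusted p = 0.000742). *mt-Nd5* (ENSMUSG00000064367, chrM:11742-13565) showed values of 615 and 646, 1072 and 815, 720.0 and 650.3, 1717 and 1924. The 4 populations did not overlap, in the order GFP- Pdgfrα-, GFP+ Pdgfrα-, GFP- Pdgfrα+ and GFP+ Pdgfrα+, and the gene was lower in GFP+ Pdgfrα+ than GFP+ Pdgfrα- (−0.57 ± 0.14, adjusted p = 0.0115) and in GFP+ Pdgfrα- than GFP- Pdgfrα- (−0.96 ± 0.14, adjusted p = 0.000102). *mt-Nd6* (ENSMUSG00000064368, chrM:13552-14070) is the only one of the 13 on the other strand. Its values were 35.8 and 30.9, 87.5 and 66.2, 49.3 and 42.6, 117 and 131, and no population overlapped another. It had the largest difference among mt mRNAs between the GFP+ populations, 2.31-fold lower in GFP+ Pdgfrα+ (−1.17 ± 0.18, adjusted p = 0.000633), and it was 2.702-fold lower in GFP- Pdgfrα+ than GFP- Pdgfrα- (−1.42 ± 0.18, adjusted p = 2.77e-05). *mt-Nd2* (ENSMUSG00000064345, chrM:3914-4951) had values of 63.1 and 98.5, 115 and 85.5, 67.2 and 90.7, 149 and 235. The 2 GFP- Pdgfrα- libraries were again highest and the others overlapped (GFP+ Pdgfrα- against GFP- Pdgfrα-, −0.91 ± 0.26, adjusted p = 0.0104). *mt-Nd3* (ENSMUSG00000064360, chrM:9459-9806), with 17 to 182 reads, had values of 9.53 and 5.03, 19.1 and 14.3, 11.2 and 10.54, 13.9 and 43.04, so that the GFP- Pdgfrα- libraries lay on either side of GFP+ Pdgfrα- (−0.55 ± 0.45, adjusted p = 0.332). Against GFP+ Pdgfrα-, the calls of *mt-Nd1* in GFP+ Pdgfrα+ were lost without GFP+ Pdgfrα- replicate 1 or without any 1 library of the Pdgfrα+ populations, and those of *mt-Nd5* without GFP+ Pdgfrα+ replicate 1 or GFP+ Pdgfrα- replicate 1. Against GFP- Pdgfrα-, the calls of *mt-Nd2* in GFP+ Pdgfrα- were lost without GFP+ Pdgfrα- replicate 2 or GFP- Pdgfrα- replicate 2, and that of *mt-Nd6* without GFP+ Pdgfrα- replicate 2.

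Complex III, which passes electrons to cytochrome *c*, has 1 subunit from this genome. *mt-Cytb* (ENSMUSG00000064370, chrM:14145-15288) had values of 1216 and 1202, 1679 and 1437, 1184 and 1173, 2593 and 2782. The Pdgfrα+ libraries lay within a narrow range, below GFP+ Pdgfrα-, which lay below GFP- Pdgfrα-. It was 1.72-fold lower in GFP+ Pdgfrα- (−0.79 ± 0.12, adjusted p = 0.000112) and 2.28-fold lower in GFP- Pdgfrα+ (−1.19 ± 0.12, adjusted p = 2.66e-06) than in GFP- Pdgfrα-. Against GFP+ Pdgfrα- it was lower in GFP+ Pdgfrα+ (−0.36 ± 0.12, adjusted p = 0.0419), a call lost without GFP+ Pdgfrα- replicate 1 or any 1 library of the Pdgfrα+ populations, and not made by edgeR.

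Complex IV (cytochrome *c* oxidase) hands the electrons to oxygen, and 3 of its core subunits are mitochondrial. *mt-Co1* (ENSMUSG00000064351, chrM:5328-6872) took 50.3% to 59.0% of the reads on mt mRNA and had values of 5836 and 5458, 9187 and 8234, 6307 and 6271, 17142 and 17223. No population overlapped another. It was 1.97-fold lower in GFP+ Pdgfrα- (−0.98 ± 0.13, adjusted p = 4.58e-05) and 2.73-fold lower in GFP- Pdgfrα+ (−1.45 ± 0.13, adjusted p = 1.17e-06) than in GFP- Pdgfrα-, and 1.54-fold lower in GFP+ Pdgfrα+ than GFP+ Pdgfrα- (−0.62 ± 0.13, adjusted p = 0.00432). The last call was lost without GFP+ Pdgfrα- replicate 1. For *mt-Co2* (ENSMUSG00000064354, chrM:7013-7696) the values were 310.0 and 328, 625 and 444, 385 and 381, 756 and 1248, with GFP- Pdgfrα- replicate 1 closer to GFP+ Pdgfrα- than to its own replicate. It was lower in GFP+ Pdgfrα- (−0.88 ± 0.21, adjusted p = 0.00358) and in GFP- Pdgfrα+ (−1.34 ± 0.21, adjusted p = 0.000139) than in GFP- Pdgfrα-, and the first of these calls was lost without GFP+ Pdgfrα- replicate 2. Its call in GFP+ Pdgfrα+ against GFP+ Pdgfrα- (−0.72 ± 0.21, adjusted p = 0.0256) was lost without GFP+ Pdgfrα- replicate 1 or any 1 Pdgfrα+ library. *mt-Co3* (ENSMUSG00000064358, chrM:8607-9390) had values of 561 and 739, 1042 and 646, 737 and 757, 1746 and 1697. Only the GFP- Pdgfrα- libraries stood clear of the others, and the gene was lower in GFP+ Pdgfrα- (−1.07 ± 0.19, adjusted p = 0.000549) and GFP- Pdgfrα+ (−1.20 ± 0.19, adjusted p = 0.000181). Per kb of transcript, the mean over the 8 libraries was 6121 for *mt-Co1*, 1449 for *mt-Cytb* and 45.5 for *mt-Nd3*, the highest, second and lowest of the 13.

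Complex V receives 2 subunits from the mitochondrial genome, read from overlapping frames. *mt-Atp6* (ENSMUSG00000064357, chrM:7927-8607) had values of 464 and 482, 691 and 515, 484 and 534, 1058 and 1476. Both GFP- Pdgfrα- libraries were above the rest, and it was 2.102-fold lower in GFP+ Pdgfrα- (−1.07 ± 0.17, adjusted p = 0.0002103) and 2.49-fold lower in GFP- Pdgfrα+ (−1.30 ± 0.17, adjusted p = 3.42e-05) than in GFP- Pdgfrα-. *mt-Atp8* (ENSMUSG00000064356, chrM:7766-7969), with 50 to 304 reads, had values of 13.9 and 22.9, 21.5 and 17.1, 20.04 and 26.6, 28.6 and 71.8, and GFP- Pdgfrα- replicate 2 alone was far above the others. Its calls in GFP+ Pdgfrα- (−1.20 ± 0.38, adjusted p = 0.0177) and in GFP- Pdgfrα+ (−0.95 ± 0.38, adjusted p = 0.0474) against GFP- Pdgfrα- were both lost without GFP- Pdgfrα- replicate 2, GFP+ Pdgfrα- replicate 1 or GFP+ Pdgfrα- replicate 2, and the second also without GFP- Pdgfrα+ replicate 1, GFP- Pdgfrα+ replicate 2 or GFP+ Pdgfrα+ replicate 2. The 2 genes share 43 bases, and the sequence is shown because reads from these bases belong to both. It is given with 20 bases on each side and with the shared bases in capitals (chrM:7907-7989, plus strand, NCBIM37).

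mt-Atp8 and mt-Atp6 overlap: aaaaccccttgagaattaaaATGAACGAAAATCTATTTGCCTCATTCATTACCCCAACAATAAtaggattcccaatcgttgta

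Some of these genes have near-identical copies in the nuclear genome, defined here as at least 95% identity over at least 100 bases of annotated exons. Of the 13 mt mRNA genes, 6 have an annotated copy and 4 a copy that is in the table. *mt-Nd4l* (ENSMUSG00000065947, chrM:9877-10173), of complex I, is identical over all 297 bases to *Gm10222* (chr1:24619243-24619539, minus strand). The values of *mt-Nd4l* were 34.1 and 51.3, 56.9 and 41.3, 33.7 and 47.97, 81.7 and 88.8, and *Gm10222* has the same value in 8 of 8 libraries, so the reads of the 2 genes were not told apart. With its reads so shared, it was lower in GFP+ Pdgfrα- (−0.80 ± 0.24, adjusted p = 0.0144) and in GFP- Pdgfrα+ (−1.06 ± 0.24, adjusted p = 0.00226) than in GFP- Pdgfrα-, and the first call was lost without GFP+ Pdgfrα- replicate 2 or GFP- Pdgfrα- replicate 2. *Gm10925* (chr1:24620814-24621627, minus strand) matches the stretch from *mt-Atp8* into *mt-Atp6* in a run of 814 identical bases and had values of 126 and 138 in GFP+ Pdgfrα+, 159 and 145 in GFP+ Pdgfrα-, 129 and 145 in GFP- Pdgfrα+ and 185 and 418 in GFP- Pdgfrα-. Summed over *mt-Atp6*, *mt-Atp8* and *Gm10925*, the values were 604 and 644 in GFP+ Pdgfrα+, 871 and 677 in GFP+ Pdgfrα-, 633 and 706 in GFP- Pdgfrα+ and 1271 and 1966 in GFP- Pdgfrα-, which keeps GFP- Pdgfrα- above the rest. *mt-Co1* is 97.6% identical over 1545 bases to *Gm13340*, whose value was at most 2.44. Without the 4 genes that have a copy in the table, 8 of 9 mt mRNAs were lower in GFP+ Pdgfrα- than GFP- Pdgfrα-, and 8 of 9 in GFP- Pdgfrα+ than GFP- Pdgfrα-. Of all genes, 23.6% and 26.8% were lower in these comparisons. The sequence of *mt-Nd4l* (chrM:9877-10173, plus strand, NCBIM37) is shown because the table assigns its reads to a mitochondrial and a nuclear gene alike, with the 7 bases it shares with *mt-Nd4* in capitals.

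mt-Nd4l: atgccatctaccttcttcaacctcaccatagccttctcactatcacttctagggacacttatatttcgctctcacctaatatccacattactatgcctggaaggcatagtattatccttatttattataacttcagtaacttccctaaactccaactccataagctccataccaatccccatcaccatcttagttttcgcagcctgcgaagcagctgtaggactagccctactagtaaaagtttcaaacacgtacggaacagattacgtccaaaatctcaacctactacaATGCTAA

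The libraries do not mark the strand of a transcript. *mt-Nd5* and *mt-Nd6* lie on opposite strands and share 14 bases, and a read that spans them cannot be assigned by strand.

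Among the 85 nuclear members, the differences against GFP- Pdgfrα- were again in a single direction with few exceptions. For GFP+ Pdgfrα- against GFP- Pdgfrα-, 43 of 85 were called, 42 lower and 1 higher (*Cox4i2*), with voom calling 46 and edgeR 44. Of all genes 53.7% were called in this comparison, 30.1% higher and 23.6% lower, so the share of members called was near that of all genes while their direction was not. The median log2 fold change of the 85 was −0.72, against 0.15 over all genes. For GFP- Pdgfrα+ against GFP- Pdgfrα-, 66 were called, 63 lower and 3 higher (*Cox4i2*, *Ndufa4l2* and *Atp5sl*), where 32.9% of all genes were higher and 26.8% lower. Voom called 67 and edgeR 68, and the median was −1.31 against 0.17. For GFP+ Pdgfrα+ against GFP+ Pdgfrα-, 10 were lower and none higher (voom 7, edgeR 7), where 13.1% of all genes were higher and 11.1% lower. The median was −0.40 against −0.02. This count was 3 without GFP+ Pdgfrα+ replicate 2 and 2 without GFP+ Pdgfrα- replicate 1, and it was 4 when limma was run with no trend. Between the Pdgfrα+ populations limma called 0 of 85, with 11 at an unadjusted p under 0.05, where voom called 1 and edgeR 0. With replicate as a block 2 were called, *Atp5b* and *Ndufa9*, and without the GFP- Pdgfrα- libraries 1. The median there was 0.14, against 0.00467 over all genes. The interaction was called in 32, higher in 30 and lower in 2, where 44.3% of all genes were called, 19.1% higher and 25.2% lower. Without GFP+ Pdgfrα- replicate 2, 21 were called in GFP+ Pdgfrα- against GFP- Pdgfrα- and 21 for the interaction.

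Scaled to reads per 1000000 with no normalization factor, all genes shifted, by −0.12 in GFP+ Pdgfrα+ against GFP+ Pdgfrα-, 0.33 in GFP+ Pdgfrα- against GFP- Pdgfrα-, 0.23 in GFP- Pdgfrα+ against GFP- Pdgfrα- and −0.35 for the interaction, in log2 units of their median. On that scale 6 nuclear members were higher and 15 lower in GFP+ Pdgfrα- than GFP- Pdgfrα-, and 5 mt mRNAs were lower. For GFP- Pdgfrα+ against GFP- Pdgfrα- 3 nuclear members were higher and 55 lower. In GFP+ Pdgfrα+ against GFP+ Pdgfrα- 21 nuclear members and 9 mt mRNAs were lower. The interaction was then higher in 16 nuclear members and lower in 5, and limma called 0 of 13 mt mRNAs (2 at an unadjusted p under 0.05) and 0 of 2 mt rRNAs (1 at an unadjusted p under 0.05). Of all 15880 genes on that scale, 6034 were higher and 2378 lower in GFP+ Pdgfrα- against GFP- Pdgfrα-, 6029 and 3348 in GFP- Pdgfrα+ against GFP- Pdgfrα-, 1857 and 2403 in GFP+ Pdgfrα+ against GFP+ Pdgfrα-, and 2016 and 5040 for the interaction.

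The mean over 2 libraries was highest in GFP- Pdgfrα- for 74 of the 85 nuclear members, in GFP+ Pdgfrα- for 8 and in GFP- Pdgfrα+ for 3. It was lowest in GFP- Pdgfrα+ for 56, in GFP+ Pdgfrα+ for 21, and in GFP+ Pdgfrα- and GFP- Pdgfrα- for 4 each. Both GFP- Pdgfrα- libraries exceeded the other 6 in 55 of the 85, and these counts were not made over all genes. Set against GFP- Pdgfrα- alone, GFP+ Pdgfrα- lay below without overlap in 59 of the 85 and above in 8. Of all 15880 genes, 5368 lay below and 6764 above. For GFP- Pdgfrα+ these counts were 77 and 4 of the 85, and 5620 and 7112 of all genes. Of the 85, 17 have a near-identical annotated copy and 12 a copy in the table. Without these 12, 37 of 73 were called in GFP+ Pdgfrα- against GFP- Pdgfrα-, 36 lower and 1 higher. Of all genes 53.7% were called there and 23.6% were lower. In GFP- Pdgfrα+ against GFP- Pdgfrα- 57 of 73 were called, 54 lower and 3 higher, where 59.7% of all genes were called and 26.8% were lower.

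**Figure D3:**
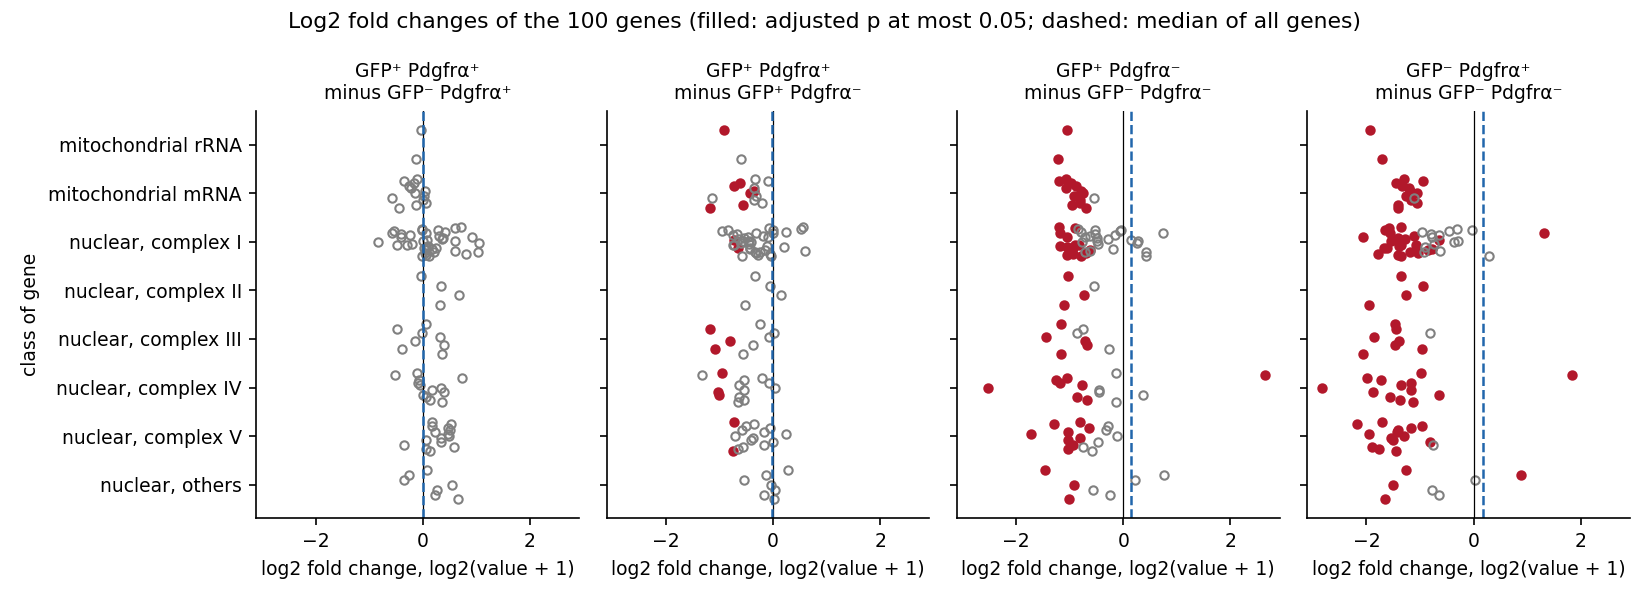
Log2 fold changes (horizontal axes) of the 100 members by class (vertical axis) in the 4 comparisons of 2 populations. Each point is a gene, filled at an adjusted p of at most 0.05, and the dashed line is the median of all 15880 genes, to the left of which most members lie in both comparisons with GFP- Pdgfrα- cells.

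Counts by complex are given beside the shares of all genes that were lower, 23.6% in GFP+ Pdgfrα- against GFP- Pdgfrα-, 26.8% in GFP- Pdgfrα+ against GFP- Pdgfrα- and 11.1% in GFP+ Pdgfrα+ against GFP+ Pdgfrα-. With GFP+ Pdgfrα- set against GFP- Pdgfrα-, 15 of 38 nuclear genes of complex I were lower, 3 of 4 of complex II, 5 of 8 of complex III, 7 of 13 of complex IV with 1 higher, and 9 of 15 of complex V. Their median log2 fold changes were −0.66, −0.89, −0.81, −0.68 and −0.80. With GFP- Pdgfrα+ set against GFP- Pdgfrα-, 23 of 38 were lower and 1 higher in complex I, 4 of 4 lower in complex II, 7 of 8 in complex III, 12 of 13 in complex IV with 1 higher, and 14 of 15 in complex V. The medians were −1.06, −1.31, −1.45, −1.35 and −1.46. With GFP+ Pdgfrα+ set against GFP+ Pdgfrα-, 2 of 38, 0 of 4, 3 of 8, 3 of 13 and 2 of 15 were lower by limma, and for complex II 2 of 4 had an unadjusted p under 0.05 while voom and edgeR called 0. Between the Pdgfrα+ populations 14 of 15 nuclear genes of complex V had a log2 fold change above 0, with a median of 0.34, and limma called 0, with 2 at an unadjusted p under 0.05, voom 1 and edgeR 0. The same count was 25 of 38 in complex I (median 0.07), 3 of 4 in complex II (0.33), 4 of 8 in complex III (0.02), 8 of 13 in complex IV (0.06) and 8011 of 15880 over all genes.

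In complex I, summed values of the 38 nuclear genes were 564 and 535 in GFP+ Pdgfrα+, 738 and 641 in GFP+ Pdgfrα-, 518 and 443 in GFP- Pdgfrα+ and 1048 and 1116 in GFP- Pdgfrα-. GFP- Pdgfrα- was clear of the others, and GFP- Pdgfrα+ replicate 2 was lowest. *Ndufa9* (ENSMUSG00000000399, chr6:126771881-126799162), a subunit at the junction of the membrane and matrix arms, had values of 36.6 and 22.9, 31.4 and 30.5, 19.5 and 11.1, 74.8 and 56.2. GFP- Pdgfrα+ had the lowest pair and GFP- Pdgfrα- the highest, with GFP+ libraries of both kinds between and overlapping. It was 4.27-fold lower in GFP- Pdgfrα+ (−2.06 ± 0.29, adjusted p = 5.95e-05) and 2.12-fold lower in GFP+ Pdgfrα- (−1.04 ± 0.29, adjusted p = 0.00918) than in GFP- Pdgfrα-, the second call being lost without either library of GFP+ Pdgfrα- or GFP- Pdgfrα- replicate 1. In GFP+ Pdgfrα+ it was 1.94 times its level in GFP- Pdgfrα+ (0.92 ± 0.29, adjusted p = 0.0967), a difference called only with the replicate block (adjusted p = 0.0339). Between the GFP+ populations the 2 called genes of complex I were *Ndufb11*, at −0.72, adjusted p = 0.0482, and *Ndufs1*, at −0.66, adjusted p = 0.0323 (log2 fold changes), which are named because the count is small, after their values were seen. Both calls were lost without any 1 library of these 2 populations, and that of *Ndufb11* also with voom (adjusted p = 0.0547) and edgeR (adjusted p = 0.0559). Exons of *Ndufb11* share 117 bases with *Rbm10*, and exons of *Ndufs1* share 102 and 146 bases with *Gm11602*, both on the opposite strand.

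Complex II (succinate dehydrogenase) links the citrate cycle to the respiratory chain and has no mitochondrial subunit. *Sdha* (ENSMUSG00000021577, chr13:74459702-74487728), which carries the flavin, had values of 102 and 106, 138 and 126, 106 and 106, 273 and 269.9. The 4 Pdgfrα+ libraries lay within a few units of each other, below GFP+ Pdgfrα-, and GFP- Pdgfrα- was highest. It was 2.05-fold lower in GFP+ Pdgfrα- (−1.03 ± 0.13, adjusted p = 2.25e-05) and 2.56-fold lower in GFP- Pdgfrα+ (−1.35 ± 0.13, adjusted p = 1.62e-06) than in GFP- Pdgfrα-. *Sdhb* (ENSMUSG00000009863, chr4:140517118-140535108), the iron-sulfur subunit, had values of 14.2 and 14.2, 16.9 and 12.99, 14.7 and 8.17, 22.8 and 21.6. It was the only one of the 4 not called in GFP+ Pdgfrα- against GFP- Pdgfrα- (−0.55 ± 0.30, adjusted p = 0.147), and its call in GFP- Pdgfrα+ (−0.95 ± 0.30, adjusted p = 0.0172) was lost without GFP- Pdgfrα+ replicate 2 or GFP- Pdgfrα- replicate 1. The membrane anchor *Sdhc* (ENSMUSG00000058076, chr1:173057296-173080734) had values of 37.7 and 39.8, 43.6 and 28.2, 24.3 and 23.6, 57.01 and 61.4, lowest in GFP- Pdgfrα+. It was lower in GFP+ Pdgfrα- (−0.74 ± 0.22, adjusted p = 0.0122, lost without GFP+ Pdgfrα- replicate 2 or GFP- Pdgfrα- replicate 2) and in GFP- Pdgfrα+ (−1.27 ± 0.22, adjusted p = 0.000274) than in GFP- Pdgfrα-, and in GFP+ Pdgfrα+ it was 1.62 times its level in GFP- Pdgfrα+ without being called (0.67 ± 0.22, adjusted p = 0.106). The other anchor, *Sdhd* (ENSMUSG00000000171, chr9:50404443-50411954), had values of 41.8 and 37.2, 56.9 and 57.5, 38.4 and 25.7, 129 and 120.4. It was 3.89-fold lower in GFP- Pdgfrα+ (−1.95 ± 0.20, adjusted p = 3.25e-06) and 2.18-fold lower in GFP+ Pdgfrα- (−1.11 ± 0.20, adjusted p = 0.000446) than in GFP- Pdgfrα-. Per kb of the mean transcript length and as the mean over the 8 libraries, the 4 subunits stood at 205 for *Sdha*, 49.3 for *Sdhd*, 27.6 for *Sdhc* and 13.7 for *Sdhb*. Per kb of the longest transcript they stood at 52.9, 49.3, 12.4 and 12.7, so their order and distances depend on the length used.

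Of the nuclear genes of complex III, *Uqcrc2* (ENSMUSG00000030884, chr7:127778690-127802992), a core subunit, stood at 93.1 per kb of the mean transcript length, against 73.8 for *Uqcrh*, but at 40.7 against 50.7 per kb of the longest transcript. Its values were 56.2 and 34.1, 86.8 and 69.1, 48.5 and 48.3, 145 and 114, highest in GFP- Pdgfrα-, next in GFP+ Pdgfrα- and lowest in the overlapping Pdgfrα+ populations. It was lower in GFP+ Pdgfrα+ than GFP+ Pdgfrα- (−0.81 ± 0.23, adjusted p = 0.0222, lost without GFP+ Pdgfrα+ replicate 2 or either library of GFP+ Pdgfrα-) and in GFP+ Pdgfrα- than GFP- Pdgfrα- (−0.72 ± 0.23, adjusted p = 0.0175, lost without GFP+ Pdgfrα- replicate 2 or GFP- Pdgfrα- replicate 1). *Uqcrc1* (ENSMUSG00000025651, chr9:108838661-108851685), the other core subunit, had values of 33.3 and 36.7, 45.04 and 30.5, 29.9 and 25.99, 96.4 and 110.2. Here GFP+ Pdgfrα- overlapped GFP+ Pdgfrα+, GFP- Pdgfrα+ was lowest and GFP- Pdgfrα- highest, with levels 2.74-fold lower in GFP+ Pdgfrα- (−1.45 ± 0.21, adjusted p = 8.91e-05) and 3.698-fold lower in GFP- Pdgfrα+ (−1.85 ± 0.21, adjusted p = 8.97e-06). *Uqcrh* (ENSMUSG00000063882, chr4:115739570-115747676), the hinge subunit, had values of 22.2 and 23.1, 58.4 and 41.8, 33.4 and 27.2, 56.2 and 62.8. In contrast to *Uqcrc1*, GFP+ Pdgfrα- overlapped GFP- Pdgfrα- (−0.26 ± 0.21, adjusted p = 0.322), and the gene was 2.21-fold lower in GFP+ Pdgfrα+ than GFP+ Pdgfrα- (−1.09 ± 0.21, adjusted p = 0.00259). *Uqcrq* (ENSMUSG00000044894, chr11:53241424-53244333), a small subunit, had values of 5.66 and 4.74, 8.62 and 7.59, 5.17 and 2.82, 20.5 and 18.04, and it was 4.83-fold lower in GFP- Pdgfrα+ than GFP- Pdgfrα- (−2.06 ± 0.35, adjusted p = 0.000283). *Uqcr11* (ENSMUSG00000020163, chr10:79865742-79869575), another small subunit, with 6 to 48 reads, had values of 3.18 and 1.87, 9.11 and 5.02, 3.66 and 4.01, 12.8 and 11.4. Its call in GFP+ Pdgfrα+ against GFP+ Pdgfrα- (−1.17 ± 0.39, adjusted p = 0.0492) was lost without any 1 of the 8 libraries and by voom and edgeR, while that in GFP- Pdgfrα+ against GFP- Pdgfrα- (−1.44 ± 0.39, adjusted p = 0.00738) was not.

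Complex IV has nuclear subunits around its mitochondrial core, several of them as pairs of isoforms of which 1 is common and the other restricted to some tissues. *Cox7c* (ENSMUSG00000017778, chr13:86184421-86186509) had values of 43.5 and 48.7, 89.2 and 51.6, 51.3 and 33.7, 103 and 116. It stood at 134 per kb of the mean transcript length, above *Cox4i1* at 113 and *Cox8a* at 113, and at 94.7 per kb of the longest transcript, below both at 113 and 113. It was lower in GFP- Pdgfrα+ than GFP- Pdgfrα- (−1.37 ± 0.25, adjusted p = 0.000535), and the call in GFP+ Pdgfrα- (−0.68 ± 0.25, adjusted p = 0.0404) was lost without any 1 library of GFP+ Pdgfrα+ or GFP- Pdgfrα- or without GFP+ Pdgfrα- replicate 2. *Cox4i1* (ENSMUSG00000031818, chr8:123192190-123198109) encodes the common form of subunit 4, with values of 60.9 and 39.5, 113 and 80.4, 61.9 and 45.00, 97.2 and 115. Its levels in GFP+ Pdgfrα- overlapped those in GFP- Pdgfrα- (−0.14 ± 0.24, adjusted p = 0.641). In the Pdgfrα+ populations it was lower, in GFP+ Pdgfrα+ against GFP+ Pdgfrα- (−0.95 ± 0.24, adjusted p = 0.0131, lost without GFP+ Pdgfrα+ replicate 2 or GFP+ Pdgfrα- replicate 1) and in GFP- Pdgfrα+ against GFP- Pdgfrα- (−0.99 ± 0.24, adjusted p = 0.00349, lost without GFP- Pdgfrα+ replicate 2). *Cox4i2* (ENSMUSG00000009876, chr2:152579909-152590773) encodes the second form, known from lung and from low oxygen, and had 7 and 5 reads in GFP+ Pdgfrα+, 18 and 31 in GFP+ Pdgfrα-, 23 and 4 in GFP- Pdgfrα+ and 0 and 0 in GFP- Pdgfrα-. Against the floor of 3 reads per library, it was at least 6.88-fold higher in GFP+ Pdgfrα- (adjusted p = 0.0008503) and at least 3.97-fold higher in GFP- Pdgfrα+ (adjusted p = 0.00823) than in GFP- Pdgfrα-. The second call was lost without GFP- Pdgfrα+ replicate 1. The value was 5.93 in that library and 1.34 in replicate 2, against a mean floor of 0.915 in GFP- Pdgfrα-, so this bound rests mainly on 1 library.

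Subunit 6b showed the opposite contrast between its forms. *Cox6b2* (ENSMUSG00000051811, chr7:4703396-4704696), the form known from testis, had values of 3.73 and 2.73, 3.52 and 2.701, 1.89 and 2.82, 19.1 and 27.00. The 6 libraries outside GFP- Pdgfrα- were all low and overlapped, and it was 7.41-fold lower in GFP+ Pdgfrα- (−2.54 ± 0.38, adjusted p = 0.000126) and 9.78-fold lower in GFP- Pdgfrα+ (−2.84 ± 0.38, adjusted p = 4.01e-05) than in GFP- Pdgfrα-, the largest decreases of any called nuclear member in both comparisons. *Cox6b1* (ENSMUSG00000036751, chr7:31401993-31411170), the common form, had values of 15.1 and 14.2, 27.3 and 19.7, 13.99 and 16.5, 37.2 and 43.5. It too was highest in GFP- Pdgfrα-, but by less: 2.65-fold against GFP- Pdgfrα+ (−1.35 ± 0.24, adjusted p = 0.000414) and 1.72-fold against GFP+ Pdgfrα- (−0.77 ± 0.24, adjusted p = 0.0179, lost without GFP+ Pdgfrα- replicate 2 or GFP- Pdgfrα- replicate 2). In GFP- Pdgfrα- the level per kb was 41.8 ± 10.1 for *Cox6b2* and 79.9 ± 8.84 for *Cox6b1*, and in GFP- Pdgfrα+ it was 4.28 ± 1.19 and 30.2 ± 3.49 (mean ± SD, n = 2).

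*Cox7a2* (ENSMUSG00000032330, chr9:79603048-79607660), the common form of subunit 7a, had values of 10.6 and 10.2, 25.4 and 19.4, 7.69 and 7.57, 27.1 and 35.02. It was 2.15-fold lower in GFP+ Pdgfrα+ than GFP+ Pdgfrα- (−1.02 ± 0.27, adjusted p = 0.0151, lost without GFP+ Pdgfrα+ replicate 2 or GFP+ Pdgfrα- replicate 1), and GFP+ Pdgfrα- did not differ from GFP- Pdgfrα- by the test (−0.46 ± 0.27, adjusted p = 0.172). *Cox7a2l* (ENSMUSG00000024248, chr17:83901259-83913673), which encodes a related protein, had values of 38.8 and 43.3, 92.9 and 74.99, 47.5 and 35.2, 59.9 and 68.7. It was among the 8 nuclear members highest in GFP+ Pdgfrα-, and it was 2.05-fold lower in GFP+ Pdgfrα+ (−1.01 ± 0.19, adjusted p = 0.00259). Its near-identical copy *Gm6969* (98.4% over 795 bases) had a mean value of 1.53. *Cox6a1* (ENSMUSG00000041697, chr5:115795651-115798990), the common form of subunit 6a, had values of 42.7 and 28.9, 44.6 and 30.5, 48.8 and 28.4, 73.7 and 96.8, and only GFP- Pdgfrα- stood apart (GFP+ Pdgfrα- against GFP- Pdgfrα-, −1.17 ± 0.29, adjusted p = 0.00422, lost without GFP+ Pdgfrα- replicate 2). For *Cox7b* (ENSMUSG00000031231, chrX:103211039-103217789), the values were 19.7 and 24.3, 35.8 and 33.3, 21.6 and 20.3, 52.99 and 75.6, and it was 3.07-fold lower in GFP- Pdgfrα+ than GFP- Pdgfrα- (−1.55 ± 0.22, adjusted p = 6.34e-05). *Cox8a* (ENSMUSG00000035885, chr19:7289648-7292106) had values of 46.5 and 47.6, 69.8 and 79.4, 34.9 and 38.2, 55.9 and 119. Its 2 GFP- Pdgfrα- libraries lay on both sides of GFP+ Pdgfrα- (−0.13 ± 0.27, adjusted p = 0.719), and it was lower in GFP- Pdgfrα+ than GFP- Pdgfrα- (−1.14 ± 0.27, adjusted p = 0.00321).

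*Ndufa4* and *Ndufa4l2*, counted with complex I by symbol, encode a protein now placed in complex IV and its homologue, which is known to be induced in low oxygen. *Ndufa4* (ENSMUSG00000029632, chr6:11850373-11857446) had values of 12.8 and 15.7, 20.03 and 16.1, 14.5 and 12.6, 35.8 and 48.9. It was highest in GFP- Pdgfrα- and 3.12-fold lower in GFP- Pdgfrα+ (−1.56 ± 0.26, adjusted p = 0.000205). *Ndufa4l2* (ENSMUSG00000040280, chr10:126951995-126954208) ran the other way, with values of 9.805 and 14.5, 11.05 and 12.99, 18.8 and 17.7, 6.75 and 6.72. Both GFP- Pdgfrα+ libraries were the highest of the 8 and both GFP- Pdgfrα- libraries the lowest, and it was 2.71-fold higher in GFP- Pdgfrα+ than GFP- Pdgfrα- (1.31 ± 0.30, adjusted p = 0.00224). With GFP+ Pdgfrα- set against GFP- Pdgfrα- it missed the threshold (0.75 ± 0.30, adjusted p = 0.0516). Its exons share 14 bases with *Shmt2* on the opposite strand.

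Complex V held the most abundant nuclear member. *Atp5b* (ENSMUSG00000025393, chr10:127520329-127527447), the catalytic β subunit, took 24.3% to 39.4% of the reads on nuclear members and stood at 1435 per kb as the mean of the 8 libraries. Its values were 965 and 689.8, 1045 and 1054, 583 and 551, 2764 and 2386. GFP- Pdgfrα- was far above the rest, the 2 GFP+ populations were intermediate, and GFP- Pdgfrα+ was lowest without overlap. It was 4.54-fold lower in GFP- Pdgfrα+ (−2.18 ± 0.15, adjusted p = 1.20e-07) and 2.45-fold lower in GFP+ Pdgfrα- (−1.29 ± 0.15, adjusted p = 1.66e-05) than in GFP- Pdgfrα-. In GFP+ Pdgfrα+ it was 1.46 times its level in GFP- Pdgfrα+, which limma did not call (0.52 ± 0.15, adjusted p = 0.0717) and edgeR did not, while voom (adjusted p = 0.0253) and the replicate block (adjusted p = 0.0296) did. Short stretches of its exons are near-identical to other annotated genes. Without *Atp5b*, the summed values of the nuclear members were 2021 and 1852 in GFP+ Pdgfrα+, 2902 and 2418 in GFP+ Pdgfrα-, 1829 and 1602 in GFP- Pdgfrα+ and 4258 and 4427 in GFP- Pdgfrα-, in the same order of populations. Between the GFP+ populations the 2 called genes of complex V were *Atp5a1*, the α subunit, at −0.73, adjusted p = 0.00339, and *Atp5o*, a stalk subunit, at −0.74, adjusted p = 0.04896 (log2 fold changes), named after their values were seen. For *Atp5a1* the call was lost without GFP+ Pdgfrα- replicate 1. For *Atp5o* it was lost without GFP+ Pdgfrα+ replicate 2, GFP+ Pdgfrα- replicate 1 or any 1 library of GFP- Pdgfrα+ or GFP- Pdgfrα-, and with edgeR (adjusted p = 0.0508) or voom (adjusted p = 0.0546), and the exons of *Atp5o* share 83 and 204 bases with *Donson* on the same strand.

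3 genes encode the same mature subunit *c*, the ring that turns in the membrane, and their levels differed between populations in different ways. *Atp5g1* (ENSMUSG00000006057, chr11:95930166-95936984) had values of 40.2 and 31.2, 36.8 and 24.3, 24.8 and 25.99, 102 and 102. GFP- Pdgfrα- was far above the others, and it was 3.33-fold lower in GFP+ Pdgfrα- (−1.73 ± 0.22, adjusted p = 3.09e-05) and 4.005-fold lower in GFP- Pdgfrα+ (−1.96 ± 0.22, adjusted p = 8.22e-06). *Atp5g2* (ENSMUSG00000062683, chr15:102493299-102501478) had values of 28.03 and 21.7, 48.9 and 34.6, 21.8 and 13.8, 38.9 and 50.8. Its levels in GFP+ Pdgfrα- and GFP- Pdgfrα- overlapped (−0.11 ± 0.27, adjusted p = 0.762), and it was lower in GFP- Pdgfrα+ than GFP- Pdgfrα- (−1.31 ± 0.27, adjusted p = 0.00118). *Atp5g3* (ENSMUSG00000018770, chr2:73746504-73749383) had values of 40.2 and 31.8, 48.4 and 45.4, 29.9 and 25.99, 79.4 and 87.4. It was 1.78-fold lower in GFP+ Pdgfrα- (−0.82 ± 0.18, adjusted p = 0.00256) and 2.99-fold lower in GFP- Pdgfrα+ (−1.55 ± 0.18, adjusted p = 1.47e-05) than in GFP- Pdgfrα-. Per kb of the mean transcript length, *Atp5g3* led with 108 ± 7.28 in GFP- Pdgfrα-, where *Atp5g2* had 69.3 ± 13.005 and *Atp5g1* 50.9 ± 0.161. In GFP+ Pdgfrα- the order was *Atp5g2* with 64.5 ± 15.7, *Atp5g3* with 60.8 ± 2.78 and *Atp5g1* with 15.3 ± 4.41 (mean ± SD, n = 2), of which the first 2 differed by less than the SD of *Atp5g2*. Over the 8 libraries the means were 24.2 for *Atp5g1*, 49.97 for *Atp5g2* and 62.9 for *Atp5g3*, and per kb of the longest transcript 10.3, 49.97 and 56.3.

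Among the 7 nuclear members that are not subunits, *Ndufaf1* and *Ndufaf4* assemble complex I. Both, named after their values were seen, were lower in GFP+ Pdgfrα- (−0.91 ± 0.31, adjusted p = 0.0256 for *Ndufaf1* and −1.01 ± 0.29, adjusted p = 0.00994 for *Ndufaf4*) and in GFP- Pdgfrα+ (−1.50 ± 0.31, adjusted p = 0.00115 and −1.65 ± 0.29, adjusted p = 0.000323) against GFP- Pdgfrα-. *Atp5s* (ENSMUSG00000054894, chr12:70825949-70845645), a coupling factor of ATP synthase with 8 to 34 reads, had values of 2.62 and 3.88, 2.79 and 2.19, 3.15 and 2.82, 9.91 and 7.43, and was lower in GFP+ Pdgfrα- (−1.46 ± 0.38, adjusted p = 0.00629) and GFP- Pdgfrα+ (−1.27 ± 0.38, adjusted p = 0.0127) than in GFP- Pdgfrα-. The first call was lost without GFP- Pdgfrα- replicate 1, the second also without GFP- Pdgfrα+ replicate 2. *Atp5sl* (ENSMUSG00000057229, chr7:26404433-26410570), named for its likeness to *Atp5s*, had values of 8.98 and 8.48, 8.38 and 11.2, 10.97 and 10.2, 7.04 and 3.89. It was higher in GFP- Pdgfrα+ than GFP- Pdgfrα- (0.89 ± 0.35, adjusted p = 0.0452), a call that the replicate block, voom and edgeR did not make and that was lost without any 1 library other than GFP- Pdgfrα- replicate 1. *Ndufaf2*, *Ndufaf3* and *Cox4nb*, a neighbour of *Cox4i1*, were called by limma in 0 of the 4 comparisons of populations.

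Electron carriers and dehydrogenases outside the rule, a list of 8 genes, feed the same chain. For this and the following lists, the shares of all genes higher and lower were 30.1% and 23.6% in GFP+ Pdgfrα- against GFP- Pdgfrα-, 32.9% and 26.8% in GFP- Pdgfrα+ against GFP- Pdgfrα-, 13.1% and 11.1% in GFP+ Pdgfrα+ against GFP+ Pdgfrα-, and 3.22% and 2.13% in GFP+ Pdgfrα+ against GFP- Pdgfrα+. Their summed values were 189 and 179.7 in GFP+ Pdgfrα+, 242 and 225 in GFP+ Pdgfrα-, 193 and 174 in GFP- Pdgfrα+ and 442 and 419 in GFP- Pdgfrα-. Of the 8, 5 were lower in GFP+ Pdgfrα-, and 6 lower and 1 higher in GFP- Pdgfrα+, than in GFP- Pdgfrα-. *Cyc1*, cytochrome *c1* of complex III, which the rule does not match, had values of 29.1 and 19.1, 33.1 and 27.7, 16.3 and 18.9, 57.3 and 72.5, and was 3.696-fold lower in GFP- Pdgfrα+ than GFP- Pdgfrα- (−1.82 ± 0.24, adjusted p = 3.60e-05). With GFP+ Pdgfrα+ set against GFP+ Pdgfrα-, 2 were lower and 1 higher. The higher gene, *Sqrdl*, which oxidizes sulfide, had values of 13.4 and 15.95, 4.25 and 1.41, 26.3 and 20.05, 5.03 and 5.07, and both Pdgfrα+ populations lay above both Pdgfrα- populations. It was 5.18-fold higher in GFP+ Pdgfrα+ than GFP+ Pdgfrα- (2.13 ± 0.39, adjusted p = 0.00198) and 4.595-fold higher in GFP- Pdgfrα+ than GFP- Pdgfrα- (1.99 ± 0.39, adjusted p = 0.000861).

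Genes that assemble complex IV (11 of 13 listed in the table, without *Cox14* and *Cox20*) summed to 98.7 and 107 in GFP+ Pdgfrα+, 127 and 106 in GFP+ Pdgfrα-, 93.2 and 92.8 in GFP- Pdgfrα+ and 195 and 159 in GFP- Pdgfrα-. In GFP+ Pdgfrα- 3 and in GFP- Pdgfrα+ 4 of 11 were lower than in GFP- Pdgfrα-, near the shares of all genes. *Sco2* had 0 reads in both libraries of GFP+ Pdgfrα- and of GFP- Pdgfrα-. Genes that maintain and transcribe mitochondrial DNA (14 of 15, without *Slirp*) summed to 283 and 252 in GFP+ Pdgfrα+, 289 and 298 in GFP+ Pdgfrα-, 293 and 255 in GFP- Pdgfrα+ and 398 and 384 in GFP- Pdgfrα-. In GFP+ Pdgfrα- 2 were higher and 3 lower than in GFP- Pdgfrα-, and in GFP- Pdgfrα+ 1 was higher and 3 lower. *Mterfd2*, of the family of mitochondrial transcription terminators, had values of 52.1 and 43.3, 21.00 and 15.3, 89.4 and 43.2, 8.19 and 6.72, and was the 1 gene higher in GFP- Pdgfrα+ than GFP- Pdgfrα-, 8.89-fold (2.91 ± 0.31, adjusted p = 6.07e-06).

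Nuclear regulators of these genes, a list of 10 led by *Gabpa*, summed to 358 and 349.6 in GFP+ Pdgfrα+, 334 and 352 in GFP+ Pdgfrα-, 304 and 302 in GFP- Pdgfrα+ and 564 and 549 in GFP- Pdgfrα-. Of the 10, 2 were higher and 4 lower in GFP+ Pdgfrα-, and 1 higher and 6 lower in GFP- Pdgfrα+, relative to GFP- Pdgfrα-. *Ppargc1a*, a coactivator of mitochondrial gene expression, named after its values were seen, had values of 12.01 and 13.9, 10.3 and 7.59, 13.7 and 16.8, 1.58 and 1.06. It was 6.78-fold higher in GFP+ Pdgfrα- (2.096 ± 0.34, adjusted p = 0.000236) and 11.6-fold higher in GFP- Pdgfrα+ (2.81 ± 0.34, adjusted p = 1.69e-05) than in GFP- Pdgfrα-, where most of the members were highest. *Ppara* had 0 reads in both GFP- Pdgfrα+ libraries. Proteins of the mitochondrial ribosome, which translates the 13 mt mRNAs, were represented by 76 of 77 annotated genes, led by *Mrps25*, and summed to 839 and 860.4 in GFP+ Pdgfrα+, 1064 and 954 in GFP+ Pdgfrα-, 847 and 811 in GFP- Pdgfrα+ and 1664 and 1688 in GFP- Pdgfrα-. In GFP+ Pdgfrα- 32 of 76 were lower and none higher than in GFP- Pdgfrα-, with a median log2 fold change of −0.68, and in GFP- Pdgfrα+ 49 were lower and 1 higher, with a median of −1.02. With GFP+ Pdgfrα+ set against GFP+ Pdgfrα- 4 of 76 were lower, where 11.1% of all genes were.

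The citrate cycle and pyruvate dehydrogenase supply the electrons, and all 16 listed genes were in the table, with sums of 1055 and 885 in GFP+ Pdgfrα+, 1199 and 1157 in GFP+ Pdgfrα-, 892 and 829 in GFP- Pdgfrα+ and 2223 and 2119.8 in GFP- Pdgfrα-. In GFP+ Pdgfrα- 12 of 16 and in GFP- Pdgfrα+ 15 of 16 were lower than in GFP- Pdgfrα-, and in GFP+ Pdgfrα+ 2 were lower than in GFP+ Pdgfrα-. Malate dehydrogenase, *Mdh2*, had values of 96.5 and 86.4, 81.2 and 70.9, 57.9 and 60.7, 204 and 222, and was the single gene higher in GFP+ Pdgfrα+ than GFP- Pdgfrα+ (0.61 ± 0.14, adjusted p = 0.0291), a call lost without any 1 of these 4 libraries. Carriers and channels for ATP, ADP and phosphate, a list of 6 led by *Slc25a3*, summed to 547 and 479 in GFP+ Pdgfrα+, 659.9 and 622 in GFP+ Pdgfrα-, 437 and 425 in GFP- Pdgfrα+ and 1203 and 1014 in GFP- Pdgfrα-. In each of GFP+ Pdgfrα- and GFP- Pdgfrα+, 1 was higher and 5 lower than in GFP- Pdgfrα-. *Slc25a5*, the adenine nucleotide carrier of dividing cells, had values of 99.01 and 83.2, 108 and 77.6, 38.4 and 25.99, 348 and 271. It was 9.61-fold lower in GFP- Pdgfrα+ than GFP- Pdgfrα- (−3.24 ± 0.22, adjusted p = 9.46e-08) and 2.83-fold higher in GFP+ Pdgfrα+ than GFP- Pdgfrα+ (1.49 ± 0.22, adjusted p = 0.00217). *Slc25a4*, the form of heart and muscle, named after its values were seen, had values of 132 and 111, 97.97 and 101, 111 and 111, 46.7 and 43.98, and was 2.197-fold higher in GFP+ Pdgfrα- than GFP- Pdgfrα- (1.12 ± 0.15, adjusted p = 3.91e-05).

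*Ucp2* was the only one of 3 uncoupling proteins in the table. Its values were 26.4 and 35.5, 83.6 and 103, 37.4 and 39.4, 798 and 854, and no 2 populations overlapped. It was 8.86-fold lower in GFP+ Pdgfrα- (−3.14 ± 0.17, adjusted p = 2.40e-08) and 21.5-fold lower in GFP- Pdgfrα+ (−4.39 ± 0.17, adjusted p = 8.74e-10) than in GFP- Pdgfrα-. The list of 9 genes of ATP synthase inhibition and mitochondrial turnover, led by *Bnip3l*, summed to 378 and 379.9 in GFP+ Pdgfrα+, 439 and 387 in GFP+ Pdgfrα-, 429 and 433 in GFP- Pdgfrα+ and 764 and 784 in GFP- Pdgfrα-. In each of GFP+ Pdgfrα- and GFP- Pdgfrα+, 3 were higher and 5 lower than in GFP- Pdgfrα-, where 30.1% and 32.9% of all genes were higher. The erythroid and cell cycle markers given above move with these lists too (10 of 10 and 4 of 4 were higher for the interaction), and their part was not tested.

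For the nuclear members, 71 of 85 were matched to a promoter of 300 bases (250 before and 50 after the start of transcription) in RefSeq on GRCm38.p6. Those without an entry included *Ndufa4l2*, *Sdhc*, *Uqcrc2*, *Uqcrq*, *Cox4i1*, *Cox4i2* and *Atp5a1*. Exact motifs were searched on both strands. The NRF1-like motif GCGCATGC was in 11 of 71 member promoters (15.5%), against 2.80% of all 27025 promoters of this length. The ETS-like motif CCGGAAG, which GABPA can bind, was in 16 (22.5%), against 9.12% of all. The YY1-like motif AAGATGG was in 11 (15.5%), against 6.48%. The CCAAT box (CCAAT) was in 32 (45.1%) against 37.9%, the TATA box (TATAAA) in 5 (7.04%) against 14.2%, the cyclic AMP response element (TGACGTCA) in 4 (5.63%) against 1.88%, and a GATA motif (AGATAA) in 5 (7.04%) against 11.4%. The median GC content was 58.7% in member promoters and 52.7% in all. Of the member promoters, 54 belong to members lower in GFP- Pdgfrα+ than GFP- Pdgfrα-. Among these 54, the NRF1-like motif was in 8 (14.8%), the ETS-like motif in 15 (27.8%) and the YY1-like motif in 6 (11.1%). A link between motifs and levels was not tested. A match describes the letters of the window and does not show that a factor binds there. The promoters of 4 members that were lower in both GFP+ Pdgfrα- and GFP- Pdgfrα+ cells than in GFP- Pdgfrα- are shown with matches of the first 3 motifs in capitals, as examples of each. They are *Uqcrc1* (chr9:108936398-108936697, plus strand) with the NRF1-like motif on both strands, which overlap within the capitals, *Cox6a1* (chr5:115348909-115349208, minus strand) with the same overlapping pair and an ETS-like motif, *Sdhd* (chr9:50603800-50604099, minus strand) with an ETS-like motif, and *Ndufa9* (chr6:126849095-126849394, minus strand) with a YY1-like motif, all 5′ to 3′ from RefSeq on GRCm38.p6.

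Uqcrc1 promoter: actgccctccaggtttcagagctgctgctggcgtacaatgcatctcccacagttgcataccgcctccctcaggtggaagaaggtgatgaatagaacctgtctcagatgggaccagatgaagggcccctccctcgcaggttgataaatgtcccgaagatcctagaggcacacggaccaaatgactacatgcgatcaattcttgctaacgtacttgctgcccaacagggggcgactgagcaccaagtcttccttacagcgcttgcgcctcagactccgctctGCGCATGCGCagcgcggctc
Cox6a1 promoter: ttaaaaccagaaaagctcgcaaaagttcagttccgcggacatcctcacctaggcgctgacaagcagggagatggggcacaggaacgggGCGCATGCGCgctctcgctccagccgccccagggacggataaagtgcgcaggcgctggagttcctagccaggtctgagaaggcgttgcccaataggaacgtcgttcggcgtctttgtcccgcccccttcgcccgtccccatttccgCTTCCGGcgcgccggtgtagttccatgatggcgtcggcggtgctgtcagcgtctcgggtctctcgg
Sdhd promoter: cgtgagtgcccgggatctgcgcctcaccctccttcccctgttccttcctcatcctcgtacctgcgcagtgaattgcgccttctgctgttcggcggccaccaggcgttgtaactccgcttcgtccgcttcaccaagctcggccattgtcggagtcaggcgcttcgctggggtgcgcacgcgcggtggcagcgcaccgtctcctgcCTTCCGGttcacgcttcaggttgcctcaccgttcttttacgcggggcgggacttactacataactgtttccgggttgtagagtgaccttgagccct
Ndufa9 promoter: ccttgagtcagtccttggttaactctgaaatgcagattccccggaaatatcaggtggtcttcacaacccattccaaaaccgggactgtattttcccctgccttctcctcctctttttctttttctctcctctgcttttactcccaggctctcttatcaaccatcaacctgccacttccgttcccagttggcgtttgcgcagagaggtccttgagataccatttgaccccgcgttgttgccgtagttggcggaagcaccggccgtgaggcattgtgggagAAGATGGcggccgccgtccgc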

How the data were processed

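The deposited table gives, per the labels, a signal for each gene in 8 libraries, which the authors made by amplifying RNA, aligning reads to NCBIM37 with RSEM 1.17 and Ensembl 65, filtering genes and scaling with limma voom. The deposited signal was found to be reads plus 0.5 per 1000000 of effective library size, and 100% of the values gave whole reads within 0.01. Groups were compared with limma 3.58.1 in R 4.3.3, on log2 of the signal plus 1, with a trend and Benjamini-Hochberg adjustment over 15880 genes. edgeR 4.0.16 on the recovered reads called 893, 3586, 8415, 9281 and 6644 genes in the 5 comparisons. Alternatives were a replicate block, fits of 2 populations, no trend, a pseudocount of 0.1, a value filter, 3 other scalings, voom, edgeR, each library left out and, added after the data were seen, a fit without the GFP- Pdgfrα- libraries. Replicate numbers were read as shared pools. The labels do not state this, while the paper describes biological replicates in which each set of samples came from pooled littermates. Calls made only with the block rest on that reading, and deviations of replicates correlated by 0.00433 to 0.0812 between populations. Levels per kb use the mean transcript length unless stated. Replicates differed by more than counting error (chi-square per degree of freedom 4.37 to 9.92). Copies were sought with blastn 2.17.0, and tables were made with Python 3.11.15, pandas 2.3.3 and numpy 2.4.6. Members were named by size of change, abundance or role, and the gene lists were chosen with earlier results of these data known. Results of an item withheld for evaluation were left out.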

Additional observations from a re-analysis of the deposited data

Results flagged for a closer look

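The difference between GFP+ and GFP- cells was not the same at both Pdgfrα states for 25 of the 43 named members, by the interaction on the log2 scale. These members were named partly for the size of their change. Over all 100 members the interaction was called in 41, against 44.3% of all genes. It was 1.02 for *mt-Rnr1*, 1.09 for *mt-Rnr2*, 0.61 for *mt-Nd1*, 0.81 for *mt-Nd4*, 0.84 for *mt-Nd5*, 0.83 for *mt-Cytb*, 0.83 for *mt-Co1*, 0.85 for *mt-Co3* and 0.96 for *mt-Atp6*. Scaled to reads with no normalization factor, 0 of these 9 calls were left, and with no trend the calls in mt mRNAs fell from 7 to 2. Among nuclear members, with 32 called and 21 with no factor, it was 2.87 for *Cox6b2*, 2.20 for *Atp5g1*, 1.97 for *Ndufa9*, 1.81 for *Atp5b*, 1.77 for *Uqcrc1*, 1.54 for *Atp5s*, 1.505 for *Uqcrq* and 1.43 for *Sdhd*. It was 1.41 for *Sdhc*, 1.24 for *Ndufa4*, 1.16 for *Atp5g3*, 1.09 for *Cox6a1*, 1.00 for *Sdha* and 0.92 for *Cox7b*. It was below 0 for *Ndufa4l2*, at −1.32, and for *Cox4i2*. For *Cox4i2*, with 0 reads in both GFP- Pdgfrα- libraries, the fitted value of −3.16 depends on the 1 added before the log and is not an exact difference.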

How the results depend on the processing

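Of 3509 values for named genes under the alternatives, 3161 kept the result, 348 were weaker and 0 were reversed. In GFP+ Pdgfrα+ against GFP- Pdgfrα+, the nuclear count of 0 became 2 with the replicate block, 1 with voom, 1 without the GFP- Pdgfrα- libraries (an alternative chosen after seeing the data) and 0 to 1 with each library left out, and the nuclear median minus that of all genes ran from 0.0212 to 0.28. Against GFP+ Pdgfrα-, the GFP+ Pdgfrα+ count of mt rRNAs was 2 with the replicate block, scaling to reads with no factor, voom, edgeR or no GFP- Pdgfrα- libraries, and 1 to 2 with each library left out. The count of mt mRNAs there was 1 with no trend and 1 to 8 with each library left out, and the nuclear count was 4 with no trend, 21 with no factor and 2 to 11 with each library left out. Scaling with no factor gave 9 mt mRNAs lower in GFP+ Pdgfrα+ than GFP+ Pdgfrα-. In GFP+ Pdgfrα- against GFP- Pdgfrα-, a fit of these populations alone called 0 mt rRNAs. With no factor 5 mt mRNAs and 21 nuclear members were called, and leaving each library out gave 7 to 13 and 21 to 43. In GFP- Pdgfrα+ against GFP- Pdgfrα-, the nuclear median minus that of all genes ran from −1.55 to −1.27. For the interaction, no factor gave 0, 0 and 21 for mt rRNA, mt mRNA and nuclear members, no trend gave 2 mt mRNAs, and leaving each library out gave 1 to 2, 4 to 10 and 21 to 33. As percent of reads outside the mitochondrial genome, mt rRNA came to 14.1 in GFP+ Pdgfrα+, 27.9 in GFP+ Pdgfrα-, 15.5 in GFP- Pdgfrα+ and 57.3 in GFP- Pdgfrα-, mt mRNA to 1.29, 2.33, 1.43 and 4.02, and nuclear members to 0.327, 0.546, 0.275 and 0.923. Per kb of the longest transcript, the levels were 655 for *Atp5b*, 40.7 for *Uqcrc2* (below *Uqcrh* at 50.7), 94.7 for *Cox7c* (below *Cox4i1* and *Cox8a*, both at 113) and 52.9 for *Sdha*, which stood at 205 with the mean length.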
